A study of Mus musculus with 12 samples.

Results

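Loss of the transcription factor NFAT5 was compared between 2 blood progenitor populations of the mouse, hematopoietic stem cells (HSC) and multipotent progenitors (MPP). For each gene, the NFAT5-deficient minus wild-type difference in MPP was subtracted from the same difference in HSC. This difference of differences, called the interaction below, is above 0 where loss of NFAT5 went with a higher level in HSC relative to its effect in MPP. It used all 12 of the 12 arrays of the study, 3 in each of 4 groups, and 19494 named genes. All levels are log2 intensities of a single-colour array and all differences are on that log2 scale, so a difference of 1 is a doubling.

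All groups held blood cells of CD45.2 donors in irradiated CD45.1 wild-type recipients. Wild-type donors were Nfat5 +/+ Vav-Cre and NFAT5-deficient donors Nfat5 fl/fl Vav-Cre. Both genotypes therefore carried Vav-Cre, a recombinase expressed throughout the blood lineages, and the recipients were wild-type in every group. The share of donor-derived blood cells in the marrow around the sorted cells was not known here. Donor cells were sorted 13 weeks after the transplant from LSK marrow cells (Sca-1 and Kit on the surface, no lineage markers), as CD48- CD150+ for HSC and CD48+ CD150- for MPP. Each array is named by its genotype, its population and the number in its label. The wild-type numbers are 66, 67 and 75, those of NFAT5-deficient cells 64, 70 and 76. A number occurs once in HSC and once in MPP. The labels do not say that it marks an animal, nor that the arrays of a group came from separate animals, so p-values measure the spread between these arrays, which may be technical.

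NFAT5 is a Rel-family DNA-binding protein that recognises a GGAAA core and is best known for switching on osmolyte transporters and chaperones under hypertonic stress. In immune cells it also acts without osmotic stress. HSC self-renew for the life of the animal and divide rarely, whereas MPP have lost lasting self-renewal, divide more and are on their way to the mature lineages. The genes of the 2 gate proteins, Slamf1 for CD150 and Cd48, belong to the SLAM family of immune receptors.

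The array medians lay between 6.402 and 6.531. A mean over 8 HSC markers was 8.75 to 9.46 on the HSC arrays and 6.90 to 7.79 on the MPP arrays, and a mean over 5 MPP markers was 6.66 to 7.05 in HSC and 10.26 to 10.90 in MPP, so the labelled populations stood apart in both genotypes. These means had interactions of -0.634 for the HSC and -0.397 for the MPP markers. Single HSC markers ranged from Procr (-1.93) and Clec1a (-1.66) to Hlf (-0.01), Fgd5 (0.04) and Slamf1 (0.05). Among MPP markers Satb1 had -1.15 and the others -0.39 to 0.25. A wider list of 28 measured HSC genes had a median interaction of -0.0059. Of the sorting markers, 4 of 5 were measured. Among markers of other cells, only the mean of mature neutrophil markers had an interaction over 0.1 in size (-0.845). The means of monocyte, B cell, T and NK cell, erythroid, megakaryocyte and mast cell markers had interactions between -0.0948 and 0.0836. Single markers within such a mean could lie on both sides, as did Ccr2 (-0.92) and C1qa (0.53), or Fcer1a (0.68) and Ms4a2 (-0.42). The erythroid mean rested on 2 of 6 listed markers. No detection calls were used. As a guide to dim levels, 3 Y-linked genes had group means of 3.65 to 5.07. RNA of 300 pg per sample was amplified before labelling, and the number of arrays limits the precision.

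Nfat5 itself read 9.81, 9.38 and 9.27 in wild-type HSC and 8.76, 8.34 and 7.62 in NFAT5-deficient HSC. In MPP it read 8.78, 8.85 and 8.12 in wild-type and 7.63, 7.73 and 8.40 in NFAT5-deficient cells. The HSC groups did not overlap, and the MPP groups did, through wild-type array 75 and NFAT5-deficient array 76. The difference was -1.25 in HSC and -0.66 in MPP, and the interaction was -0.59 (SE 0.50, limma adjusted p = 0.999). The HSC minus MPP difference of Nfat5 was 1.03, 0.53 and 1.15 on the wild-type numbers 66, 67 and 75, and 1.13, 0.60 and -0.79 on the NFAT5-deficient numbers 64, 70 and 76. An exact two-sided permutation of the genotype over the 6 numbers, each taken as a unit, gave p = 0.6, where 20 assignments allow no less than 0.1. A single probe set read Nfat5. Where it lies against the floxed part was not known here, so it checks the labels only in part.

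No gene passed the test of the interaction. limma called 0 of 19494 genes (0% called) at an adjusted p under 0.05, and 817 genes (4.19%) had an unadjusted p under 0.05 (5% of the genes tested would be 974.7). Of these, 436 had an interaction above 0 and 381 below 0. Within HSC limma called 0 genes (0%), with 1205 at an unadjusted p under 0.05, and for the average of both populations 0 genes (0%), with 1386. Within MPP it called 1 gene (0.00513%), Ms4a4c, with 1043 genes at an unadjusted p under 0.05. The 95% confidence interval of a gene's interaction reached 0.658 to each side at the median gene and 1.12 at the median of the 9003 genes with a group mean of at least 7. These intervals are unadjusted and lie around each gene's own estimate, so they set no limit on the interaction of a gene that was not called.

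The measured genotype differences of HSC and MPP were nearly unrelated across genes, as the scatter of both differences shows. Pearson's r over the 19494 genes was 0.0790, and 0.0499 over the 9003 genes with a group mean of at least 7. Genes are not independent replicates. The 2 comparisons share no array, but they share the platform and the amplification. The SD over genes was 0.418 for the HSC differences, 0.380 for the MPP differences and 0.542 for the interaction. At the median gene the 95% confidence interval of the difference reached 0.466 to each side in HSC and in MPP. Such an interval reaches further than 1 SE to each side, so it cannot be set directly against these SDs. Error in both differences lowers the size of r, by an amount that was not estimated. A low r therefore does not show that the effects of NFAT5 loss differed between HSC and MPP.

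**Figure D1:**
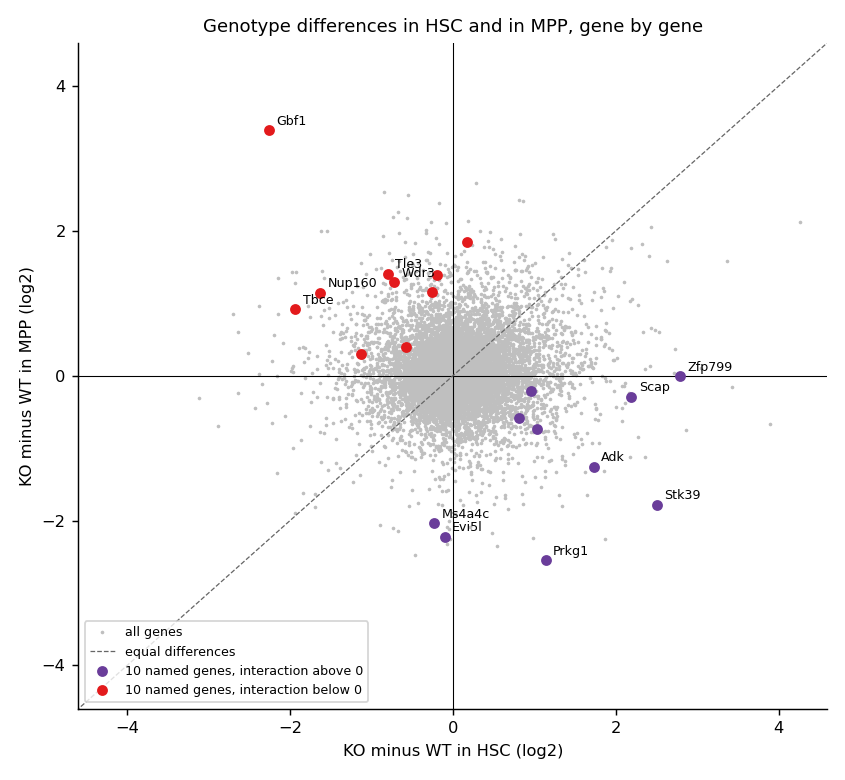
Each grey point is 1 of 19494 genes, with its NFAT5-deficient (KO) minus wild-type (WT) log2 difference in HSC on the x axis and in MPP on the y axis. The dashed line marks equal differences. The 10 named genes with an interaction above 0 lie to the lower right of it and the 10 with an interaction below 0 to the upper left, with Gbf1 farthest out at -2.26 in HSC and 3.39 in MPP.

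Groups that did not overlap were counted as a description that needs no model. In HSC, all 3 NFAT5-deficient values lay above all 3 wild-type values for 692 genes (3.55%) and below them for 1288 (6.61%). In MPP the counts were 741 above (3.8%) and 1723 below (8.84%). With each array centred on its median the MPP counts were 956 above and 1252 below, so the excess of lower genes in MPP depended in part on the scaling. The groups did not overlap in both populations in the same direction for 156 genes (0.8%) and in opposite directions for 81 genes (0.416%). Of the 156 genes, 44 were higher and 112 lower in NFAT5-deficient cells of both kinds. Among the genes with a group mean of at least 7 the 4 combinations were nearer to each other in number. There, 37 genes were higher in both and 25 lower in both, 15 were higher in HSC and lower in MPP, and 25 lower in HSC and higher in MPP.

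The gene with the most extreme interaction was Gbf1, which encodes the exchange factor that activates ARF GTPases at the Golgi. It read 9.997, 9.29 and 9.35 in wild-type HSC and 6.28, 7.73 and 7.83 in NFAT5-deficient HSC. In MPP the order was turned, with 6.61, 6.79 and 5.76 in wild-type and 10.20, 9.57 and 9.55 in NFAT5-deficient cells. The groups did not overlap in either population. Gbf1 was 4.80-fold lower in NFAT5-deficient HSC (difference -2.26) and 10.5-fold higher in NFAT5-deficient MPP (3.39), which gave an interaction of -5.65 (SE 0.63, limma adjusted p = 0.0549). Leaving out any single array kept it between -5.93 and -5.15.

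Nup160, which encodes a scaffold protein of the nuclear pore, ran the same way. It read 10.92, 10.69 and 10.31 in wild-type HSC against 8.57, 9.20 and 9.25 without NFAT5. In MPP it read 9.46, 8.33 and 8.34 in wild-type and 9.48, 9.73 and 10.36 in NFAT5-deficient cells, where wild-type array 66 came close to the lowest NFAT5-deficient value. Neither pair of groups overlapped, and the interaction was -2.78 (SE 0.51, limma adjusted p = 0.634).

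Stk39 and Adk ran the opposite way, higher in HSC and lower in MPP. Stk39 encodes SPAK, a kinase of the WNK pathway that controls chloride cotransporters when cell volume changes. It read 6.67, 7.83 and 8.10 in wild-type HSC and 10.38, 10.77 and 8.99 in NFAT5-deficient HSC, against 10.24, 10.37 and 9.31 in wild-type MPP and 8.95, 7.12 and 8.5 in NFAT5-deficient MPP. The difference was 2.51 in HSC (5.69-fold higher) and -1.78 in MPP (3.44-fold lower), with an interaction of 4.29 (SE 0.86, limma adjusted p = 0.780).

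Adk encodes adenosine kinase, which returns adenosine to the nucleotide pool. Its values were 7.32, 7.07 and 6.71 in wild-type HSC and 8.37, 9.34 and 8.57 in NFAT5-deficient HSC. In MPP they were 8.82, 8.51 and 8.11 in wild-type and 6.92, 7.05 and 7.69 in NFAT5-deficient cells. No groups overlapped in either population, and the interaction was 2.99 (SE 0.47, limma adjusted p = 0.303). In wild-type cells Adk and Stk39 were thus lower in HSC than in MPP, and in NFAT5-deficient cells higher.

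The promoters of Gbf1, Nup160, Stk39 and Adk are shown because these are the 4 genes just described with opposite differences in the populations, and NFAT5 is a DNA-binding protein with a known core. The sequences are RefSeq promoters on GRCm38.p6, and each line gives the 250 bases before the transcription start, 5′ to 3′ on the gene's strand, with GGAAA or its complement TTTCC in capitals. Gbf1 is at chr19:46152308-46152557 and Nup160 at chr2:90676965-90677214, both on the plus strand, Stk39 at chr2:68471982-68472231 on the minus strand and Adk at chr14:21052324-21052573 on the plus strand.
Gbf1: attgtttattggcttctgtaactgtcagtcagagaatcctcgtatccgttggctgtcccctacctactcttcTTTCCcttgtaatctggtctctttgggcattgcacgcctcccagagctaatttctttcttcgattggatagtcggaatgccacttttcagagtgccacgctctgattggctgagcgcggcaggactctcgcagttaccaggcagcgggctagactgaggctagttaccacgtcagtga
Nup160: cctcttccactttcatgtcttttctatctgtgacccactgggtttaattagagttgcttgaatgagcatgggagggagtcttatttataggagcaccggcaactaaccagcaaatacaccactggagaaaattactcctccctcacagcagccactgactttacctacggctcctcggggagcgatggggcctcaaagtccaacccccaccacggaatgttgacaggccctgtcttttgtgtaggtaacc
Stk39: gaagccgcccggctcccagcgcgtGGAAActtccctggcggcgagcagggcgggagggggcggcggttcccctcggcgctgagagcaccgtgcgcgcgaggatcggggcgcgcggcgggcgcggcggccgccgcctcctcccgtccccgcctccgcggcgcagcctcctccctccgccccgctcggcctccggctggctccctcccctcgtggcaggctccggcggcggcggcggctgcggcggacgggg
Adk: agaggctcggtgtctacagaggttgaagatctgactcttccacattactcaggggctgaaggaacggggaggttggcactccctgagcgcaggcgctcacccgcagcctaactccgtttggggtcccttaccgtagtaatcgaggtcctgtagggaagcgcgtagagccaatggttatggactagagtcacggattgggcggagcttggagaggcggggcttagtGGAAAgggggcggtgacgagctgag
The 250 bases of Nup160 held 0 matches and those of the other genes 1 each, which began 178 bases before the start in Gbf1 (on the complementary strand), 226 in Stk39 and 25 in Adk. Searched on both strands of the window from 250 bases before to 50 after the start, GGAAA was present in 8 of the 19 promoters matched among the 20 genes named for their interaction, and in 60.4% of 15683 promoters of tested genes. The longer tonicity-responsive enhancer consensus was present in 0 of the 19 and in 2.54% of all. These are matches of letters in a short window, not sites of binding.

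**Figure D2:**
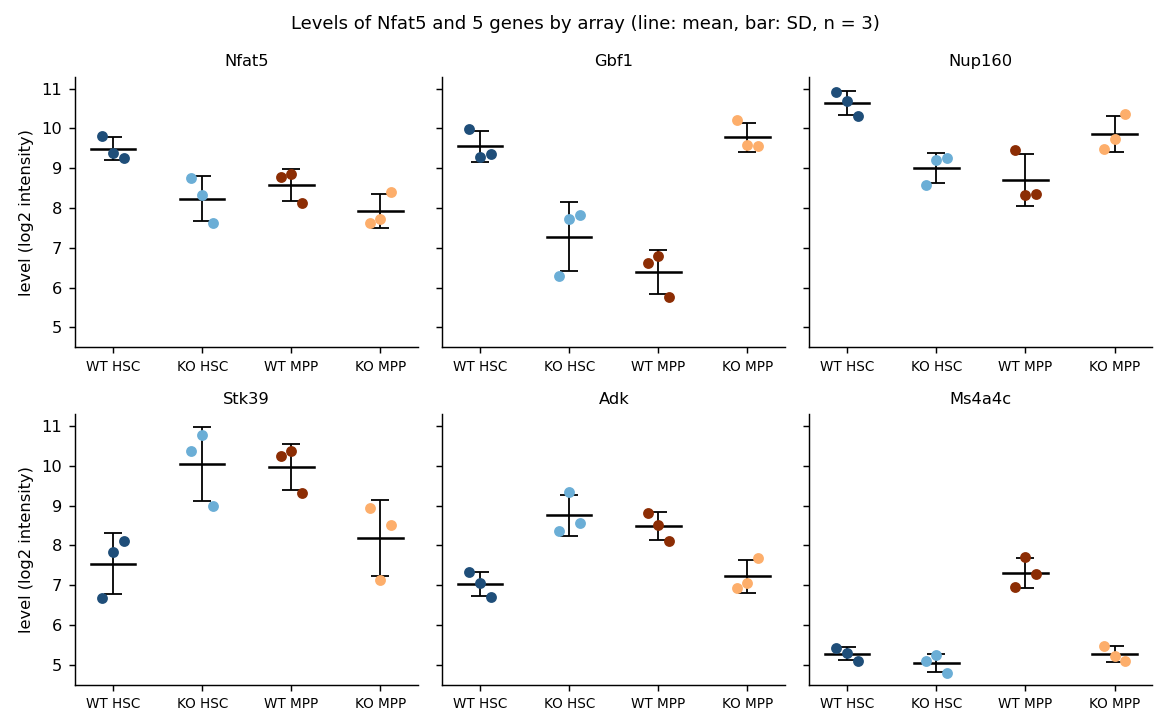
Levels (log2 intensity, y axis) of Nfat5 and 5 genes named for their interaction on the 3 arrays of each group, with the mean (line) and SD (bar). Gbf1 and Nup160 were lower in KO than in WT HSC and higher in KO than in WT MPP, Stk39 and Adk ran the other way, and Ms4a4c differed in MPP, where the wild-type arrays read 6.95, 7.70 and 7.27.

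Ms4a4c, a member of the membrane-spanning 4A family, was the 1 gene past the test within a population. It read 6.95, 7.70 and 7.27 in wild-type MPP and 5.48, 5.21 and 5.10 in NFAT5-deficient MPP, and fell by 2.04 there (SE 0.20, limma adjusted p = 0.0124). In HSC it read 5.43, 5.28 and 5.10 in wild-type and 5.09, 5.23 and 4.80 in NFAT5-deficient cells, with overlapping groups and a level about that of the Y-linked genes. The interaction was 1.81 (SE 0.28, limma adjusted p = 0.303), so its MPP change was not shown to differ from HSC. The call in MPP was lost without wild-type MPP array 75, without HSC arrays 66 and 70, without both arrays of any number other than 66, and in a test of the genes with a group mean of at least 7.

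Of the 10 genes named for an interaction above 0, 8 had differences of opposite sign in HSC and MPP and 4 had groups that did not overlap in either population. Opposite signs, and a turned order of the populations, partly follow from picking genes by the interaction. Their counts are therefore no separate evidence. All 10 genes were lower in wild-type HSC than in wild-type MPP, and 8 were higher in HSC than in MPP without NFAT5. Beyond those already given they were Prkg1, the cGMP-dependent kinase (1.14 in HSC and -2.55 in MPP), Scap, which escorts the sterol-regulated factor SREBP (2.19 and -0.29), Zfp799 (2.79 and -0.01), Evi5l (-0.10 and -2.22), Zc3h7a (1.04 and -0.74), Atxn7, a subunit of the SAGA complex (0.82 and -0.59), and Fyttd1, an mRNA export adaptor (0.96 and -0.21). Scap read 6.58, 6.45 and 5.92 in wild-type HSC and 8.30, 9.38 and 7.85 in NFAT5-deficient HSC, while its MPP values overlapped between 7.92 and 8.66. Evi5l read below 6 in every group other than wild-type MPP (7.71, 6.78 and 7.77), close to the Y-linked genes. Ms4a4c and Evi5l reached a group mean of 7 only in wild-type MPP, and Zfp799 only in NFAT5-deficient HSC. The limma adjusted p of the 10 genes ran from 0.303 to 0.963.

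Of the 10 genes named for an interaction below 0, 9 had opposite signs and 6 had groups that did not overlap in either population. In wild-type cells 9 of the 10 were higher in HSC, and without NFAT5 8 of the 10 were lower there. These counts, too, partly follow from picking genes by the interaction. Rab2a, a GTPase of traffic between the endoplasmic reticulum and the Golgi, read 8.67, 8.77 and 9.14 in wild-type and 10.30, 10.08 and 10.36 in NFAT5-deficient MPP, while all 6 HSC arrays read 9.99 to 10.56. Eif4a1, the helicase of translation initiation, read 10.82, 10.48 and 11.12 in wild-type HSC and 10.26, 10.41 and 10.01 without NFAT5, and 10.83, 10.69 and 10.79 against 11.26, 11.19 and 11.05 in MPP. The receptor gene Notch2 was at 6.99, 6.90 and 6.97 in wild-type MPP and 8.28, 8.27 and 7.77 in NFAT5-deficient MPP, with overlapping groups in HSC. The others were Tle3, a Groucho-type corepressor (-0.80 in HSC and 1.41 in MPP), Wdr3 (-0.72 and 1.29), Tbce, a tubulin-folding cofactor (-1.93 and 0.92), Rnf113a1 (0.17 and 1.84) and Npr2, a natriuretic peptide receptor (-1.13 and 0.30). Rnf113a1 reached a group mean of 7 only in NFAT5-deficient MPP. The limma adjusted p of the 10 genes ran from 0.0549 for Gbf1 to 0.999.

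Ranked by the smaller of both differences instead, the opposed genes higher in NFAT5-deficient HSC were Stk39, Adk, Timp2, Dnajc11, Pradc1 and Copg2. Timp2, an inhibitor of matrix metalloproteinases, differed by 1.09 in HSC and -1.12 in MPP, and Copg2, a subunit of the COPI vesicle coat, by 1.64 and -0.79. Copg2 rested partly on wild-type HSC array 75, which read 7.28 beside 9.62 and 9.93, and its interaction of 2.44 was 1.60 without that array. Opposed genes lower in NFAT5-deficient HSC were Gbf1, Rpusd4, Nup160, Cdk5rap2, Tbce and Tle3. Rpusd4 reached a group mean of 7 only in wild-type HSC, at 8.65, 7.68 and 5.28 against 5.23, 4.80 and 5.14 without NFAT5. Its wild-type HSC array 75 thus lay barely above the NFAT5-deficient values. Cdk5rap2, a centrosome protein gene, read 7.47, 7.21 and 7.60 in wild-type HSC and 6.86, 6.04 and 6.59 in NFAT5-deficient HSC, and turned to 6.74, 6.88 and 5.90 against 7.15, 7.01 and 8.20 in MPP.

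Among the genes named for the same sign in both populations, those higher without NFAT5 had the larger differences. All were picked by brightness and by size, so this contrast is no separate evidence. Slc16a6, of the monocarboxylate transporter family, read 4.25, 4.20 and 6.57 in wild-type HSC and 7.37, 9.64 and 10.78 in NFAT5-deficient HSC, and 6.21, 6.54 and 5.53 against 8.33, 8.31 and 7.98 in MPP. Its difference was 4.26 in HSC and 2.12 in MPP, from wild-type HSC levels as dim, on arrays 66 and 67, as Y-linked genes. Qtrt2, a subunit of the enzyme that puts queuine into tRNA, differed by 2.62 in HSC and 1.59 in MPP (average 2.10, limma adjusted p = 0.249). Gosr1, a SNARE of the Golgi, read 7.19, 8.42 and 8.14 in wild-type HSC and 9.78, 10.20 and 9.58 in NFAT5-deficient HSC, and 8.30, 7.61 and 7.38 against 9.07, 9.69 and 8.99 in MPP. Its average difference was 1.71 (limma adjusted p = 0.279) and its interaction 0.45 (SE 0.53). Cyb5d1 (2.44 in HSC and 2.06 in MPP), Spen, a transcriptional corepressor (2.10 and 1.29), and Dnajc27 (1.24 and 1.27) were the other genes named as higher in both. Slc16a6 and Spen reached a group mean of 7 only in NFAT5-deficient cells, and Dnajc27 only in NFAT5-deficient HSC.

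The genes named as lower in both moved less. Wipf1, which encodes a partner of the actin regulator WASP, differed by -1.58 in HSC and -0.79 in MPP, and Zfp53 by -0.66 and -0.73. Wipf1 reached a group mean of 7 only in wild-type cells. Zfp53 read 7.70, 7.67 and 8.31 in wild-type and 7.18, 7.11 and 7.40 in NFAT5-deficient HSC, and 8.30, 8.84 and 8.65 against 7.85, 7.93 and 7.80 in MPP. Napa, which encodes the SNARE-recycling factor alpha-SNAP, differed by -0.28 and -0.74, and Shh, Ankrd24 and Jph2 by -0.28 to -0.40 in either population. The limma adjusted p of the average difference of the 12 genes ran from 0.249 to 0.69.

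Functional classes were described through 59 gene lists with 1352 measured genes. For each list, the median difference in HSC and in MPP was taken relative to the median of all genes, which was -0.048 in HSC and -0.065 in MPP, and so was the median interaction (0.023 for all genes). A list was said to agree where both relative medians had 1 sign, exceeded 0.1 in size and kept that sign whichever array was left out. It was said to differ where the relative median interaction exceeded 0.2 in size and kept its sign in the same way. By this rule 7 lists agreed, 2 differed and 50 did neither. The median of a list's interactions is not the difference of its medians, since it is taken gene by gene. The relative median interaction also exceeded 0.2 in size in p53 and target genes (0.253), interferon-gamma-induced GTPases (0.238), MPP and lymphoid priming genes (-0.286) and MHC class II genes (-0.234), but did not keep its sign there. Both relative medians were above 0 in 30 lists and below 0 in 8, while 16 were above 0 in HSC and below in MPP and 5 the reverse. Genes with a mean level of 8.5 to 10 as a whole had higher medians than dimmer genes in both populations, as given below. These counts were not set against genes of like level, so they do not show that the classes tend upward. No list member passed the test in HSC, in MPP or for the interaction. Over all genes, 41.6% were above 0 in HSC, 38.9% in MPP and 53.3% for the interaction. The counts of members above or below 0 given below are to be read beside these shares.

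**Figure D3:**
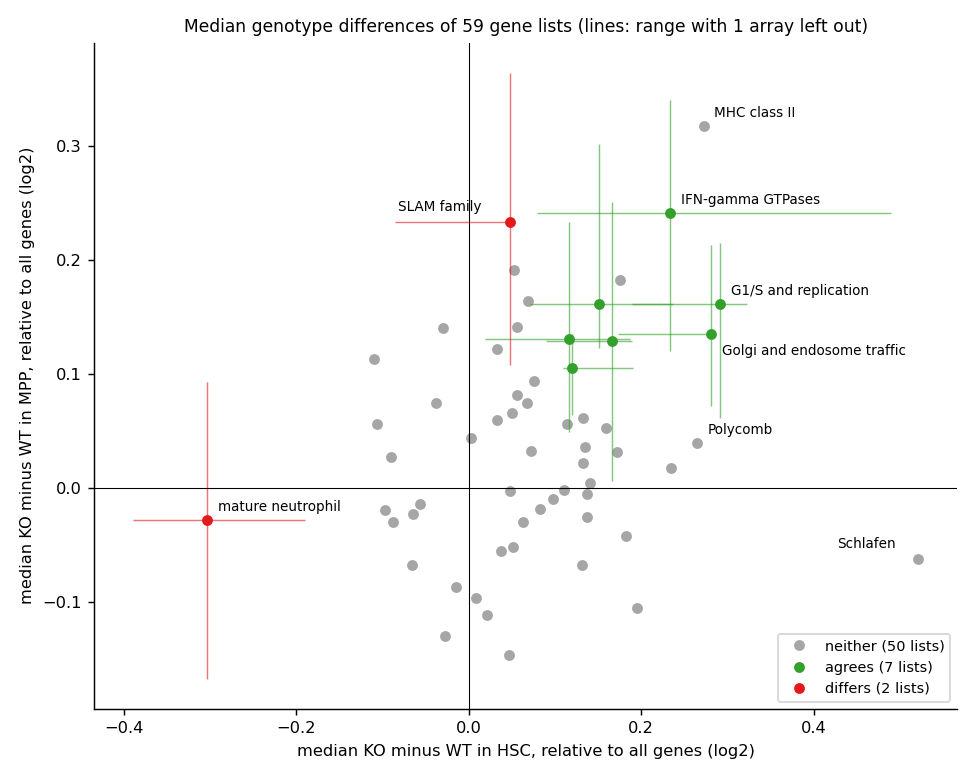
Each point is 1 of 59 gene lists, with its median NFAT5-deficient minus wild-type log2 difference in HSC (x axis) and in MPP (y axis), relative to all genes. Lines give the range when 1 array was left out, for the 7 lists that agreed (green, upper right) and the 2 that differed (red). The mature neutrophil genes lie farthest left, at -0.30 in HSC and -0.03 in MPP.

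Mature neutrophil genes, which encode granule proteins and receptors of finished neutrophils, had the largest relative median interaction of any list in size, at -0.467. In HSC 22 of 23 measured members were lower without NFAT5 (relative median -0.304), where 41.6% of all genes were higher. In MPP 16 of 23 were lower, where 38.9% of all genes were higher. The relative median in MPP was -0.0275 and turned to 0.0932 when wild-type array 67 was left out. The interaction was below 0 for 17 members, where 53.3% of all genes had one above 0. The size rested on single arrays: the relative median interaction was -0.0906 when wild-type HSC array 67 was left out. It was -0.220 and -0.283 when MPP arrays 75 and 66 of the wild type were left out, and -0.593 when MPP array 67 was.

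S100a9, a calcium-binding protein abundant in neutrophils, read 10.85, 10.26 and 6.38 in wild-type HSC and 6.0, 5.48 and 6.64 in NFAT5-deficient HSC. In MPP it read 10.09, 10.27 and 8.14 in wild-type and 9.51, 9.06 and 9.0 in NFAT5-deficient cells. The HSC groups overlapped through wild-type array 75, and the interaction was -2.81 (SE 1.41, limma adjusted p = 0.999). Mmp8, a neutrophil collagenase, read 4.41, 6.29 and 5.32 in wild-type HSC, and its means of 4.36 to 4.44 in the other groups were as dim as Y-linked genes. Fcnb, a ficolin of neutrophil granules, ran against its list in MPP. It read 5.37, 5.54 and 5.27 in wild-type HSC against 5.11, 5.02 and 5.06 without NFAT5, and 5.35, 5.08 and 4.92 in wild-type MPP against 6.30, 6.62 and 6.08 without NFAT5 (interaction -1.55, SE 0.22, limma adjusted p = 0.204).

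The mean of 9 defining neutrophil markers moved with this list, with which it shares genes such as S100a9 and Mmp8. It is therefore no separate evidence. In HSC it read 6.89, 7.38 and 5.52 for the wild type (numbers 66, 67 and 75, in that order) and 5.42, 5.53 and 5.51 without NFAT5. In MPP it was 6.95, 7.02 and 5.96 in wild-type and 6.49, 6.62 and 6.02 in NFAT5-deficient cells. Wild-type number 75 was thus the lowest of its genotype in both populations, and in HSC it lay among the NFAT5-deficient arrays. In HSC 8 of the 9 markers were lower without NFAT5, and 8 of 9 in MPP. The part of other cells in this difference was not tested, and in bulk samples fewer cells of a type and less RNA per cell cannot be told apart.

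**Figure D4:**
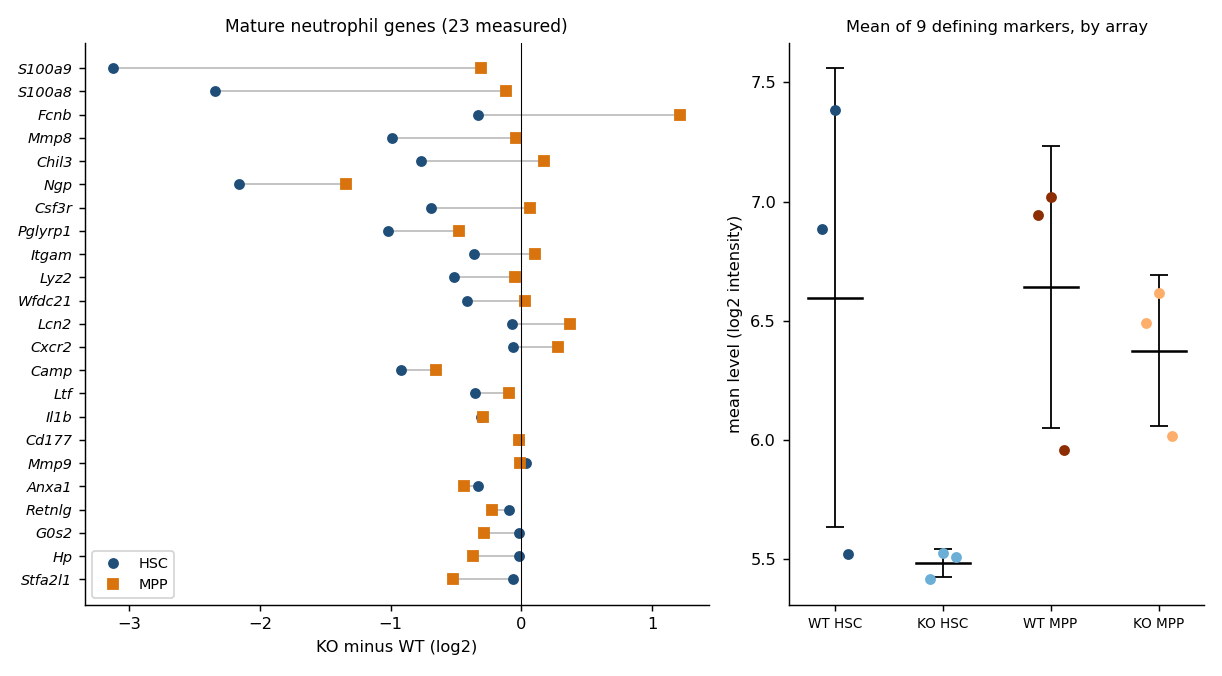
Left, KO minus WT log2 difference (x axis) of 23 mature neutrophil genes in HSC (circles) and MPP (squares), ordered by the interaction, with S100a9 at the top (-3.12 in HSC, -0.31 in MPP). Right, mean log2 level of 9 defining neutrophil markers, S100a9 among them, on each array with the group mean (line) and SD (bar). Wild-type HSC arrays 66 and 67 stand at 6.89 and 7.38, while wild-type array 75 is level with the KO HSC arrays.

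SLAM family genes, which include the genes of both gate proteins, were the other list to differ. The relative median was 0.0477 in HSC, with 6 of 12 measured members above 0, and 0.234 in MPP, with 10 of 12 above 0. The relative median interaction was -0.270. It reached -0.364 with wild-type HSC array 67 left out, and came down to -0.103 with wild-type HSC array 75, -0.0861 with MPP array 66 of the wild type and -0.108 with MPP array 75 left out. The median in HSC turned below 0 when any of 4 arrays was left out, reaching -0.0853 with NFAT5-deficient array 64, and that in MPP ran from 0.108 (array 76 left out) to 0.364 (array 64). Slamf6 was the member with the smallest p, at 4.47, 4.5 and 4.94 in wild-type HSC, 4.32, 4.13 and 4.10 in NFAT5-deficient HSC, 4.03, 4.23 and 4.29 in wild-type MPP and 4.74, 4.66 and 5.67 in NFAT5-deficient MPP. These levels were mostly no brighter than those of Y-linked genes, as were those of Slamf7 (-0.41 in HSC and 0.18 in MPP), and 5 of the 12 members reached a group mean of 7. Cd244a, the receptor for CD48, was one of these and differed by -0.38 in HSC and 0.51 in MPP, with overlapping groups in both. The gate genes had small differences against their errors. Slamf1 differed by 0.24 in HSC and 0.19 in MPP, and Cd48 by 0.02 and 0.37, with interactions of 0.05 (SE 0.51) and -0.35 (SE 0.87).

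All 7 lists that agreed had relative medians above 0 in both populations. Median differences of genes by level are given here without subtracting the median of all genes. Genes with a mean level of 8.5 to 10 as a whole had 0.0863 in HSC and 0.0711 in MPP, against -0.0726 and -0.0883 for those below 6. For genes of 7 to 8.5 these medians were -0.0203 and -0.0412. The median level was 8.74 in the G1/S and replication list and 8.84 in the Golgi and endosome traffic list. In the other lists that agreed it was 6.71 to 7.93. Without the subtraction, the G1/S and replication list had medians of 0.244 in HSC and 0.0966 in MPP. The Golgi and endosome traffic list had 0.234 and 0.0704, so in MPP it was no higher than all genes of 8.5 to 10. With quantile normalization the genes of 8.5 to 10 were at 0.0269 and 0.0129. Under it the 7 lists stayed above 0 in both populations, and 2 of them, the interferon-gamma-induced GTPases and the DNA damage and Fanconi genes, kept both relative medians over 0.1.

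G1/S and replication genes, which open DNA synthesis, had relative medians of 0.292 in HSC and 0.162 in MPP. In HSC 27 of 38 measured members were above 0 and in MPP 28, and 21 were above 0 in both, where 19.03% of all genes were. The mean over the list was 8.39, 8.28 and 8.53 on the wild-type HSC arrays against 8.71, 8.65 and 8.56 without NFAT5, and 8.72, 8.71 and 8.86 against 8.96, 8.85 and 8.95 in MPP, where wild-type array 75 overlapped NFAT5-deficient array 70. Rrm2, the small subunit of ribonucleotide reductase, read 7.77, 7.20 and 7.87 in wild-type HSC and 8.31, 9.10 and 8.15 without NFAT5, and 7.83, 7.65 and 8.94 against 8.83, 9.25 and 9.89 in MPP. Its average difference was 1.04 (limma adjusted p = 0.651). Mcm5, of the replicative helicase, and Pola1, the catalytic subunit of DNA polymerase alpha, differed in HSC (0.74 and 0.65) more than in MPP (0.10 and 0.02), with interactions of 0.64 (SE 0.32) and 0.63 (SE 0.29). Left-out arrays took the relative median down to 0.189 in HSC (wild-type array 67) and to 0.0620 in MPP (wild-type array 66).

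DNA damage and Fanconi genes had relative medians of 0.151 in HSC and 0.161 in MPP, with 21 and 20 of 31 members above 0. The HSC value was 0.0711 with wild-type array 75 left out, 0.0928 with NFAT5-deficient array 76 and 0.237 with array 70, and the MPP value was 0.302 with wild-type array 67 left out. Fancb, of the Fanconi core complex, read 5.41, 6.25 and 6.34 in wild-type and 7.42, 7.33 and 7.15 in NFAT5-deficient HSC, with overlapping MPP groups (1.30 in HSC and 0.14 in MPP). Prkdc, the DNA-dependent protein kinase, differed by 0.74 and 0.17. Ercc6l2, a helicase-like gene of marrow failure, went against the list, at 9.45, 7.64 and 9.38 in wild-type HSC and 6.38, 5.16 and 7.0 in NFAT5-deficient HSC, with MPP arrays between 8.83 and 10.21 (-2.64 in HSC and -0.24 in MPP).

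Golgi and endosome traffic genes had relative medians of 0.281 in HSC and 0.136 in MPP, with 29 and 28 of 44 members above 0. In MPP the list was no higher than all genes of like brightness, as given above. The HSC value was 0.174 with NFAT5-deficient array 64 and 0.185 with wild-type array 66 left out. The MPP value was 0.0720 with NFAT5-deficient array 64, 0.0893 with wild-type array 66 and 0.213 with wild-type array 67 left out. The list holds Gbf1, whose differences were opposite. Sec23b, of the COPII coat, differed by 1.76 in HSC and 0.68 in MPP, at 6.58, 6.56 and 7.09 in wild-type HSC against 8.90, 9.02 and 7.58 without NFAT5. Vta1, which helps recycle the ESCRT machinery, and Arf3 ran against the list in HSC. Vta1 read 9.22, 9.41 and 9.05 in wild-type HSC and 8.14, 7.69 and 7.58 in NFAT5-deficient HSC, while its MPP arrays overlapped (-1.42 in HSC and -0.19 in MPP), and Arf3 differed by -0.82 and 0.06. Autophagy genes had relative medians of 0.117 and 0.131, with 21 of 33 members above 0 in each population. The HSC value was 0.0189 with wild-type array 75 left out, 0.187 with array 67 and 0.179 with NFAT5-deficient array 76. The MPP value was 0.0495, 0.234 and 0.0835 with NFAT5-deficient arrays 64, 70 and 76 left out in turn, and 0.0646 with wild-type array 75. Among them Atg2b, a lipid transfer protein, differed by 0.81 in HSC and 1.64 in MPP, Atg4a by 1.17 and 0.17, and Atg101 by -0.40 and -0.27, with groups that did not overlap in either population.

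Of the immune lists, 3 agreed. Interferon-gamma-induced GTPases, which act against intracellular pathogens, had relative medians of 0.233 in HSC (10 of 12 above 0) and 0.242 in MPP (8 of 12). Gbp2 read 6.92, 6.97 and 6.26 in wild-type HSC and 7.44, 7.22 and 8.66 without NFAT5, and 6.99, 6.63 and 5.95 against 8.07, 6.98 and 6.72 in MPP, where the groups overlapped. Iigp1 differed by 0.86 in HSC and 0.35 in MPP and Tgtp2 by 0.19 and 0.27. Without HSC arrays 66 and 70 together, the relative median of this list in HSC was -0.106, and 0.0795 with wild-type array 66 alone left out, 0.107 with NFAT5-deficient array 70, 0.489 with wild-type array 75 and 0.356 with NFAT5-deficient array 76. In MPP it was 0.132 with wild-type array 66 and 0.121 with NFAT5-deficient array 70 left out.

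Nucleic acid sensors and adaptors had relative medians of 0.166 in HSC and 0.129 in MPP, with 12 and 10 of 19 members above 0. With wild-type arrays 67 and 75 left out in turn the HSC value was 0.0891 and 0.0932, and the MPP value 0.00676 and 0.208 with NFAT5-deficient arrays 64 and 70 and 0.252 with wild-type array 75 left out. Mavs, the adaptor of cytosolic RNA sensing, differed by 0.20 in HSC and 0.47 in MPP, Ikbke, a kinase that acts on interferon regulatory factors, by 0.80 and 0.49, and Irf5 by -0.25 and -0.58. NF-kB genes had relative medians of 0.119 and 0.105, with 13 and 10 of 19 members above 0. The HSC value was 0.188 with wild-type array 66 and 0.191 with NFAT5-deficient array 76 left out. The MPP value was 0.0644 with NFAT5-deficient array 64 left out. Birc3, an inhibitor of apoptosis, differed by 0.59 and 1.59 with overlapping groups, Tnip2 by 0.26 and 0.29, and Nfkbie, which encodes an inhibitor of NF-kB, by -0.09 and -0.38.

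Type I interferon-stimulated genes neither agreed nor differed. Their relative median was 0.137 in HSC, with 23 of 40 members above 0, and -0.0050 in MPP, with 15 above 0. Of all genes, 41.6% were above 0 in HSC and 38.9% in MPP, so the MPP count was near that share. The relative median interaction was 0.0867 and ran from 0.0218 to 0.141 when 1 array was left out, and it was -0.0118 without HSC arrays 66 and 70. Members lay on both sides. Oasl2 differed by 1.24 in HSC and -0.68 in MPP and Zbp1, a sensor of nucleic acids in the Z form, by 0.81 and -0.54, whereas Oas2 differed by -0.30 and 1.43 and Isg15 by 0.37 and 0.95. Of the interactions of these 4 genes, Zbp1 had 1.35 (SE 0.48) and Isg15 -0.58 (SE 0.85). Members named from lists that neither agreed nor differed were chosen after their values were seen.

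The Schlafen genes, interferon-responsive regulators of growth, had the largest relative median of any list in HSC, 0.521, with 6 of 9 members above 0, and -0.0618 in MPP with 3 above 0. The median in HSC was 0.0635 without NFAT5-deficient HSC array 70. The list mean was 6.85, 6.99 and 6.71 in wild-type HSC and 7.24, 7.35 and 7.49 without NFAT5, groups that did not overlap, and 7.09 to 7.24 in wild-type MPP against 7.03 to 7.09 without NFAT5. Slfn5 led this, at 2.12 in HSC and -0.38 in MPP, with an interaction of 2.49 (SE 0.97), and Slfn8 had 1.04 and -0.92. The relative median interaction of the list was 0.175, under the size set for a difference.

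Polycomb genes, which keep developmental genes silent, had relative medians of 0.265 in HSC and 0.0401 in MPP. Of 33 members, the groups did not overlap in HSC for 7 above and 2 below, where all genes had 3.55% and 6.61%, and in MPP for 1 and 2, where all genes had 3.8% and 8.84%. Cbx7 differed by 1.87 in HSC and 0.63 in MPP, Kdm2b by 1.37 and 0.28 and Rbbp7 by 0.57 and -0.04, while Asxl1 had -1.58 and 0.91 and Mtf2 -0.62 and 0.12. The median in HSC was 0.0283 without wild-type HSC array 66. CDK inhibitors, D cyclins and CDK4/6 had relative medians of 0.182 and -0.0418, with 12 of 15 interactions above 0, where 53.3% were over all genes. The HSC value was 0.00623 with wild-type array 67 left out, and the MPP value turned to 0.0292 with wild-type array 67 left out. Cdkn1a, the p53-regulated CDK inhibitor p21, differed by 0.45 and -0.11, and Cdk4 by 0.13 and -0.32.

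Osmotic stress genes, which hold the textbook targets of NFAT5, had relative medians of -0.0149 in HSC and -0.0862 in MPP. In each population 9 of 13 members were below 0, where 41.6% of all genes were above 0 in HSC and 38.9% in MPP. Of the members, 7 were below 0 in both, where 38.5% of all genes were. The relative median in HSC was -0.107 with wild-type array 67 left out. That in MPP turned to 0.0879 with NFAT5-deficient array 76 left out. Slc6a6, the taurine transporter, differed by 0.05 in HSC and -0.74 in MPP, with an interaction of 0.78 (SE 0.36). Slc6a12, the betaine transporter, had -0.25 and -0.30, Hspa1b -0.42 and -0.18 and Sgk1 0.06 and 0.67. Cell volume genes, the list that holds Stk39, had both relative medians within 0.1 of 0. Oxsr1, a closely related kinase of the same pathway, differed by 1.85 in HSC and 0.41 in MPP, with an interaction of 1.44 (SE 0.88), and the cotransporter gene Slc12a2 by 0.93 and -0.04.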

How the data were processed

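Bone marrow progenitors were profiled on 12 single-colour arrays, 3 for each of 4 groups, with groups and array numbers taken from the labels. The authors deposited 1 table of log2 expression values, with 22142 probe sets between 2.51 and 13.28. RMA and limma are named by the submitters' processing notes without versions or roles, and the log2 scale was read from the values. The platform annotation paired 19527 probe sets with 1 symbol and 0 with several. The other 2615 were unnamed and left out. For the 33 genes with more than 1 probe set the brightest stood for the gene, which left 19494 genes.

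The values were used as deposited. limma 3.58.1 in R 4.3.3 was fitted to 4 group means with 8 residual degrees of freedom and eBayes with an intensity trend. Contrasts were the genotype difference in HSC, in MPP, their difference (the interaction) and their average, with Benjamini-Hochberg adjustment over all genes and calls at an adjusted p under 0.05. The procedure was tested on simulated data. Tables and figures were made with Python 3.11.15, pandas 2.3.3 and matplotlib 3.10.9.

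Named genes were Nfat5, the called genes and, filling up to 10 per direction, those with the smallest unadjusted p of the interaction and a group mean of at least 7. Further named genes were up to 6 for each direction among those whose groups did not overlap in either population, ranked by the smaller difference, and up to 3 members of each list that agreed or differed. Unnamed gene models, receptor families of smell and taste, small RNAs and histone cluster genes were left out. The comparison, the gene lists and the rules for them were chosen with earlier results of these data known, so no list is independent evidence.

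Alternatives were array number as a block, 2 filters on dim genes, other eBayes settings, array weights, centring, quantile normalization, averaging of probe sets, a threshold of 0.10, and leaving out each array, each number and HSC arrays 66 and 70. The numbers of the labels were not taken to pair the arrays. Promoter sequences came from RefSeq.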

Additional observations from a re-analysis of the deposited data

How the results depend on the processing

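The count of genes called by limma for the interaction was 0, and it was 1, Gbf1, with array number as a random replicate block (consensus correlation 0.0454), with genes of a group mean of at least 7, with genes of a mean of at least 6, and at an adjusted p under 0.10. With array number as a fixed replicate block it was 0 (smallest adjusted p 0.804, 857 genes at an unadjusted p under 0.05). Leaving out 1 array or both arrays of a number gave 0 to 2 interaction calls, 0 to 5 in HSC (0 with all arrays), 0 to 4 in MPP (1 with all arrays) and 0 to 2 for the average (0 with all arrays). Interaction calls with arrays left out were Rpusd4 without wild-type HSC array 75, Gbf1 without NFAT5-deficient HSC array 64, Kdm8 without NFAT5-deficient MPP array 70 and without number 70, Tab3 without number 67, and Pdik1l and Rpusd4 without number 75. The MPP count was 0 with either filter on dim genes and without HSC arrays 66 and 70, 6 with array weights, 3 with centred arrays, 2 with quantile normalization and 7 at an adjusted p under 0.10. Genes whose groups did not overlap in the same direction in both populations numbered 103 with quantile normalization against 156. The causes of these shifts were not tested. For 65 named genes the alternatives were run on 1 contrast each. This was the interaction or, for genes and list members named for agreeing, the average, and none of these reversed. Most of these genes were picked on the same arrays by that contrast or by non-overlap, so kept signs were likely beforehand. Other contrasts of some named genes, such as the interaction of Gbp2 or the MPP difference of S100a9, did turn sign with 1 array left out. The numbers were not taken to pair the arrays, since the labels do not say that they mark animals. Deviations of same-numbered arrays correlated at -0.0137 to 0.0641 (6 pairs) and those of other numbers of 1 genotype at -0.0833 to 0.0409 (12 pairs). Deviations were taken from means of 3 arrays, which ties the second set to the first. These correlations therefore cannot tell whether a number marks an animal. The HSC minus MPP difference per number did not overlap between genotypes for 1836 genes (9.42%). With 3 arrays per group, an interaction had to be large to be called, as its intervals show.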

Other observations

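Oxidative phosphorylation genes, which build the respiratory chain, had a relative median of 0.135 in HSC, with 50 of 75 members above 0, and 0.0367 in MPP, with 35 above 0. These values were 0.0593 in HSC with wild-type array 75 left out and -0.0240 in MPP with wild-type array 66 left out. Their groups did not overlap for 7 members above and 2 below in HSC (3.55% and 6.61% of all genes), and for 1 above and 4 below in MPP (3.8% and 8.84% of all genes). The relative median interaction ran from 0.0218 to 0.141 when 1 array was left out. Cytosolic ribosomal protein genes had 39 of 56 members above 0 in each population, with relative medians of 0.0759 and 0.0943, which were 0.0269 with wild-type HSC array 75 and 0.0369 with wild-type MPP array 66 left out. Erythroid genes had 12 of 14 interactions above 0, where 53.3% were over all genes. Their relative medians were 0.131 in HSC and -0.0672 in MPP (0.0535 with wild-type array 66 left out), but only 5 members reached a group mean of 7.

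Nuclear pore genes, the list of Nup160, had relative medians of -0.0301 in HSC (0.103 with wild-type array 67 left out) and 0.141 in MPP and a relative median interaction of -0.167 that stayed below 0 with any 1 array left out. H3K9 and retroelement silencing genes had 15 of 20 members above 0 in MPP and 11 in HSC, with relative medians of 0.183 and 0.176, and the value in HSC was -0.0134 with NFAT5-deficient array 70 left out. The calcium-regulated NFAT and calcineurin genes, relatives of Nfat5 and their activating phosphatase, had relative medians of -0.110 in HSC (-0.00436 with NFAT5-deficient array 70 left out) and 0.113 in MPP, with 4 and 9 of 16 members above 0. MHC class II genes had relative medians of 0.272 and 0.318, and the value in HSC was -0.133 without wild-type HSC array 66.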
